A study of Mus musculus with 10 samples.

Results

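The genes described here encode the signals of enteroendocrine cells, the scattered hormone-secreting cells of the stomach and intestinal lining, measured in RNA-seq libraries of isolated mouse pancreatic islets. The 8 members were chosen by symbol: Gip, Cck, Sct, Nts, Ghrl, Gast and Tac1, which encode peptide precursors, and Tph1, which encodes the enzyme of serotonin synthesis. All 8 had a row among the 52178 genes of the deposited table, and 6 of them were among the 15298 genes abundant enough to be tested. The islets came from male C57Bl/6 mice, retired breeders, in a sedentary group (libraries 1 to 5) and an exercise group (libraries 6 to 10), with 5 libraries in each. The exercise animals had 3 days of acclimatization and then ran on a treadmill (17 cm/s, incline 5 degrees) for 1 h a day and 5 days a week over 2 weeks. In both groups the islets were released with collagenase injected through the pancreatic duct, picked by hand under the microscope, and put in medium with 11 mM glucose. No genotype, transgene or drug is named for either group, an exact age is not given, and the labels do not say whether a library was made from 1 animal or from several, so p-values reflect variation from library to library, part of which may be technical. The comparison of both groups asked how the level of each member in islet preparations differed after training.

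Enteroendocrine cells share their secretory machinery and several transcription factors with islet cells, and both lineages pass through a stage that depends on the factor Neurog3. In the adult, each hormone is made mainly at a characteristic site: gastrin in the antrum of the stomach, ghrelin in the body of the stomach, GIP, cholecystokinin and secretin in the upper small intestine, and neurotensin farther down. GIP and cholecystokinin are released after a meal, GIP raises insulin secretion, and ghrelin is also known from a rare islet cell type, the epsilon cell.

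The libraries held between 15081922 and 23222704 counts. The labelled tissue was checked by its defining genes: in CPM (counts per 1000000 counts of library size, after TMM scaling of the sizes), the insulin gene Ins2 lay between 85181 and 120200 in the exercise libraries and between 88546 and 124510 in sedentary 3, 4 and 5. Sedentary 1 and 2 stood apart, with Ins2 at 5057 and 23744 CPM, and with the highest summed levels of enterocyte genes. The result of each member is therefore also given for the 8 libraries without this pair. The summed level of 25 enterocyte genes, the absorptive cells of the gut, was 19797 and 27902 CPM in sedentary 1 and 2, between 4144 and 5655 CPM in sedentary 3 to 5, and between 482 and 1219 CPM in the exercise libraries.

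The promoters of 4 members are shown because Gip, Cck and Sct had the largest changes among the members tested, while Gast did not pass in the fit that included it. Each sequence is the 250 bases before a transcription start in RefSeq (build GRCm38.p6), 5′ to 3′ on the gene's strand, and all 8 members were found in that table by symbol, with 12 start sites between them. Capitals mark matches on either strand to AGATAA (the core bound by GATA factors), TATAAA (the core of the TATA box) or TGACG (part of the site of CREB-type factors).
Gip, chr11:96024295-96024544 (plus strand): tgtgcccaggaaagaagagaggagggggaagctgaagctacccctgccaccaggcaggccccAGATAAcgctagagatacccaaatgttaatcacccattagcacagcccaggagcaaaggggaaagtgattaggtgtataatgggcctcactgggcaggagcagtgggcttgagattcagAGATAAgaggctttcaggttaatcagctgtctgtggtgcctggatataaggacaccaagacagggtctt
Cck, chr9:121495695-121495944 (minus strand): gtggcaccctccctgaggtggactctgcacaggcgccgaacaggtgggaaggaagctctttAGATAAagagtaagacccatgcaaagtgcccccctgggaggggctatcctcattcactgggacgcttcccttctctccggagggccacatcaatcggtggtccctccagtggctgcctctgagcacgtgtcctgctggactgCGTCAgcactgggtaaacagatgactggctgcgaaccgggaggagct
Sct, chr7:141279134-141279383 (minus strand): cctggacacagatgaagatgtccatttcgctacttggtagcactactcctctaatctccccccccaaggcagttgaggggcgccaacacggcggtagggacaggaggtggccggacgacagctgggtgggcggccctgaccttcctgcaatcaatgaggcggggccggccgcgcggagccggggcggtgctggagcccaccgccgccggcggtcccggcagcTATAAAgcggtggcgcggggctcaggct
Gast, chr11:100334157-100334406 (plus strand): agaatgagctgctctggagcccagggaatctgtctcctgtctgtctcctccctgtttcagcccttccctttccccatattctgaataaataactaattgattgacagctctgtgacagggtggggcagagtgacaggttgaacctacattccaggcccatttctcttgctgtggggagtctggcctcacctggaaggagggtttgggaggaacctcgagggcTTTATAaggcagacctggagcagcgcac
Gip held AGATAA at 188 and 69 bases before the start, and Cck held it at 189. Cck also held TGACG at 47 bases, while Sct and Gast each held TATAAA at 28 bases before the start. No match overlapped another in these 4 windows. AGATAA was present in windows of 4 of the 8 members (Cck, Gip, Nts and Tac1), or 4 of their 12 windows, against 9.99% of all 32817 windows of this length. TGACG was in 5 of the 12 windows (17.7% of all windows), TATAAA in 2 (12.4%) and the E-box CANNTG, bound by factors such as Neurod1, in 8 (66.2%). A match is a description of letters and not a measured binding site.

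Most of these genes were lower in exercise islets. In 5 of the 8 members (Gip, Cck, Sct, Tph1 and Ghrl) every exercise library was below every sedentary library, which held for 11.4% of all genes tested, while 6.24% were higher in every one. Against sedentary 3, 4 and 5 alone, where these 5 members are lower by necessity, 12.6% of all genes were lower in every exercise library. The listed values of Nts did not overlap either, but its 0.130 CPM in sedentary 4 lay under the level that a count of 0 allows in the exercise libraries. Of the 6 members tested, all 6 fell with exercise and 0 rose (edgeR quasi-likelihood test with Benjamini-Hochberg adjustment over all genes), where 11.4% of all genes tested were lower and 2.44% higher. The filter on counts is met by enough counts in 5 libraries. Gip, Cck, Sct, Tph1 and Ghrl reached that level in every sedentary library but not in every exercise library. They were thus tested through the group where they were high. With no filter edgeR called 6 of the 8 members lower, with Nts in place of Tac1, and 0 higher, against 6.20% and 0.995% of all genes. At an unadjusted p under 0.05 in edgeR, the members counted 6 lower and 0 higher. That loose cut was met by 5105 of the 15298 genes tested, in either direction. DESeq2 called 6 members lower and 0 higher (17.3% and 7.17% of all genes), and limma-voom 1 lower, Sct, and 0 higher (2.22% and 1.16% of all genes). The members' median log2 fold change was -4.38, against -0.00072 over all genes tested. In the 8 libraries without sedentary 1 and 2 the median was -2.91, and 5 members were lower and 0 higher, against 8.68% and 4.1% of all genes. Fewer cells of a type and less RNA per cell cannot be told apart in such bulk samples.

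**Figure D1:**
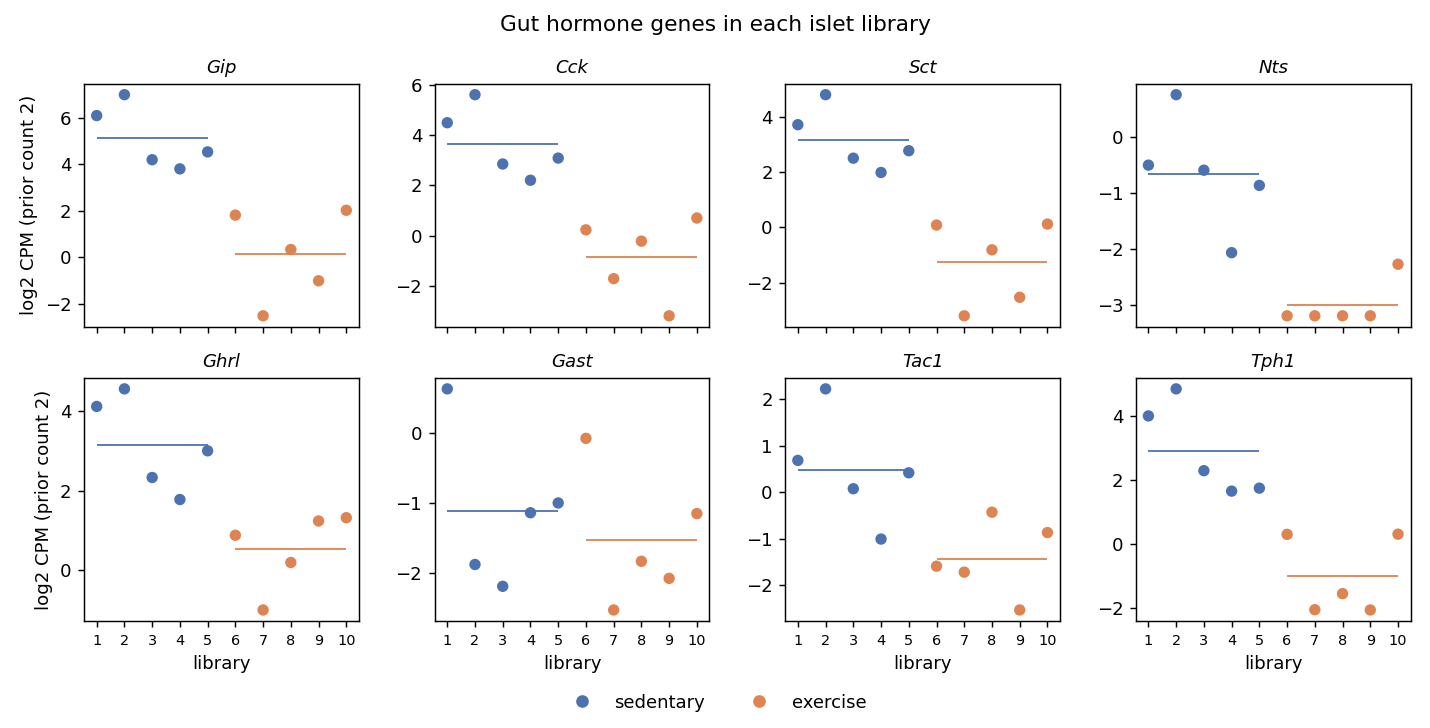
Log2 CPM (prior count 2) of each gene on the vertical axis in each library on the horizontal axis, with sedentary libraries in blue, exercise libraries in orange and a line at each group's mean. Sedentary 2 holds the highest point for every gene but Gast, whose highest point is sedentary 1, and the plotted groups overlap only for Gast and Tac1, while the lowest sedentary point of Nts rests on 3 counts.

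Gip encodes the incretin GIP, made by intestinal K cells. It was at 68.4, 128, 18.2, 13.9 and 23.1 CPM in sedentary 1 to 5 and at 3.41, 0.0651, 1.15, 0.386 and 3.95 CPM in exercise 6 to 10. The groups did not overlap, and the highest exercise libraries were 6 and 10. Gip fell from 50.3 ± 48.5 to 1.79 ± 1.78 CPM (mean ± SD, n = 5 libraries each), which is -4.78 ± 0.97 as log2 fold change ± SE (edgeR, adjusted p = 0.0122). The change was -4.07 without sedentary 2 (edgeR adjusted p = 0.0200) and -3.28 without sedentary 1 and 2 (edgeR adjusted p = 0.0112).

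Cck encodes cholecystokinin, the hormone of intestinal I cells that triggers gallbladder contraction and pancreatic enzyme secretion, and is also a neuropeptide. Its levels were 22.4, 48.7, 7.10, 4.49 and 8.37 CPM in sedentary 1 to 5, and 1.06, 0.195, 0.748, 0 and 1.51 CPM in exercise 6 to 10. Every exercise library was under every sedentary library. The 0 of exercise 9 allows up to 0.193 CPM, the level of 3 counts. Cck fell, with a mean of 18.2 ± 18.4 CPM in sedentary and 0.704 ± 0.620 CPM in exercise libraries (-4.64 ± 0.93 as log2 fold change ± SE, p adjusted in edgeR = 0.0117). Without sedentary 2 the change was -3.86, and without sedentary 1 and 2 it was -3.15 (edgeR adjusted p = 0.0183 and 0.0112).

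Sct encodes secretin, the hormone of S cells that stimulates bicarbonate secretion by the pancreatic duct. It was measured at 13.0, 27.6, 5.55, 3.84 and 6.71 CPM in sedentary 1 to 5 and at 0.950, 0, 0.460, 0.0644 and 0.976 CPM in exercise 6 to 10, where the 0 of exercise 7 allows up to 0.195 CPM. The order of the sedentary libraries was the same as for Gip, with 2 and 1 highest and 4 lowest. Sct fell, with a mean of 11.3 ± 9.74 CPM in sedentary and 0.490 ± 0.466 CPM in exercise libraries (-4.47 ± 0.87 as log2 fold change ± SE, p adjusted in edgeR = 0.0105). It was the member that also passed limma-voom (adjusted p = 0.0480). Its change was -3.83 without sedentary 2 and -3.35 without sedentary 1 and 2 (edgeR adjusted p = 0.0163 and 0.00917).

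Nts encodes neurotensin, a peptide of N cells and of neurons, and was too low for the filter on counts. It had 10, 29, 10, 3 and 9 counts in sedentary 1 to 5. In the exercise group exercise 10 had 2 counts and the other 4 libraries had 0, which allows between 0.168 and 0.195 CPM. The summed 61 sedentary and 2 exercise counts gave a ratio of 27.3 per scaled library size (exact 95% interval 7.25 to 231, counting error only). In a fit of all 28053 genes with a count and no filter, where 6.20% of genes were called lower, Nts changed by -4.50 ± 0.97 (log2 ± SE, p adjusted in edgeR = 0.0156). The fitted value was -6.55 without exercise 10, -3.89 without sedentary 2 and -3.69 without sedentary 1 and 2 (edgeR adjusted p = 0.0317, 0.0334 and 0.0317).

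Tph1 encodes tryptophan hydroxylase 1, which carries out the rate-limiting step of serotonin synthesis outside the brain, in enterochromaffin cells, mast cells and beta cells. Its levels were 15.9, 28.7, 4.77, 3.02 and 3.23 CPM in sedentary 1 to 5. They were 1.12, 0.130, 0.230, 0.129 and 1.12 CPM in exercise 6 to 10. The exercise libraries again split into 6 and 10 above 7, 8 and 9, and none reached a sedentary library. Tph1 fell, with a mean of 11.1 ± 11.2 CPM in sedentary and 0.546 ± 0.526 CPM in exercise libraries (-4.29 ± 0.89 as log2 fold change ± SE, p adjusted in edgeR = 0.0135). Without sedentary 2 the change was -3.57, and without sedentary 1 and 2 it was -2.66 (edgeR adjusted p = 0.0224 and 0.0182).

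Ghrl encodes ghrelin, the appetite hormone that is activated by attachment of a fatty acid. It was at 17.3, 23.6, 4.94, 3.33 and 7.93 CPM in sedentary 1 to 5 and at 1.73, 0.391, 1.04, 2.25 and 2.39 CPM in exercise 6 to 10. The groups did not overlap, but exercise 9, among the lowest for Gip, Cck and Sct, was among the highest for Ghrl. The level fell, with a mean of 11.4 ± 8.70 CPM in sedentary and 1.56 ± 0.844 CPM in exercise libraries (-2.86 ± 0.63 as log2 fold change ± SE, p adjusted in edgeR = 0.0169). The call was lost without exercise 8 (edgeR adjusted p = 0.0523), and the change was -1.75 without sedentary 1 and 2 (edgeR adjusted p = 0.0369). The enzyme that attaches the fatty acid, Mboat4, had between 0.111 and 0.273 CPM in sedentary and at most 0.0651 CPM in exercise libraries, too low to be tested. Its lowest sedentary level was under the 0.146 to 0.195 CPM that a count of 0 allows in the exercise libraries.

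Tac1 encodes the precursor of substance P and neurokinin A, tachykinin peptides of enterochromaffin cells and of sensory and enteric neurons. Its levels were 1.49, 4.53, 0.943, 0.389 and 1.22 CPM in sedentary 1 to 5 and 0.224, 0.195, 0.633, 0.0644 and 0.439 CPM in exercise 6 to 10. The groups overlapped, with exercise 8 and 10 above sedentary 4. Tac1 fell, with a mean of 1.72 ± 1.63 CPM in sedentary and 0.311 ± 0.225 CPM in exercise libraries (-2.41 ± 0.71 as log2 fold change ± SE, p adjusted in edgeR = 0.0473). The call was lost without any 1 library other than sedentary 3 or 4 (highest edgeR adjusted p = 0.113). It was also lost without sedentary 1 and 2 (-1.37, edgeR adjusted p = 0.160), and the change was -1.65 without sedentary 2.

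Gast encodes gastrin, the hormone of antral G cells that drives acid secretion, which is also transiently made in the fetal pancreas. It was below the filter on counts, at 24, 3, 2, 8 and 8 counts in sedentary 1 to 5 and at 15, 1, 3, 2 and 7 counts in exercise 6 to 10. The groups overlapped, with sedentary 1 and exercise 6 highest. The summed counts of 45 and 28 gave a sedentary to exercise ratio of 1.44 (exact 95% interval 0.879 to 2.40, counting error only). In the fit with no filter Gast did not pass (-0.61 ± 0.79 as log2 fold change ± SE, p adjusted in edgeR = 0.627). The sign turned without sedentary 1, to 0.29, and without sedentary 1 and 2, to 0.13 (edgeR adjusted p = 0.835 and 0.927). The stomach mucosa list held 15 genes, 13 of them with a count. Its sum was also highest in sedentary 1, 6035 CPM, against 313 to 2469 CPM in the other sedentary and 248 to 775 CPM in exercise libraries. Pgc, a stomach proenzyme, was at 2842 CPM there and between 6.46 and 43.4 CPM in the other sedentary libraries, and the parietal cell gene Atp4a was at 404 CPM against 2.95 to 7.83. Gkn3 and Tff2 of the same list were instead highest in sedentary 2, at 827 and 1570 CPM, against 7.89 and 313 CPM in sedentary 1. Among sedentary libraries every other gene of the list with a count was highest in sedentary 1. Of the 5 genes of that list that were tested, 1, Pgc, was lower in exercise (edgeR; 0 by limma-voom and 2 without sedentary 1 and 2). Pgc no longer passed when exercise 7, 8, 9 or 10 was left out (edgeR adjusted p up to 0.0664), and its log2 fold change went from -10.10 to -3.85 without sedentary 1 and 2. The most abundant gene of the list, the mucosal peptide gene Tff2, had 590 ± 553 and 407 ± 211 CPM (edgeR adjusted p = 0.481). The part of this tissue in the Gast counts was not tested.

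**Figure D2:**
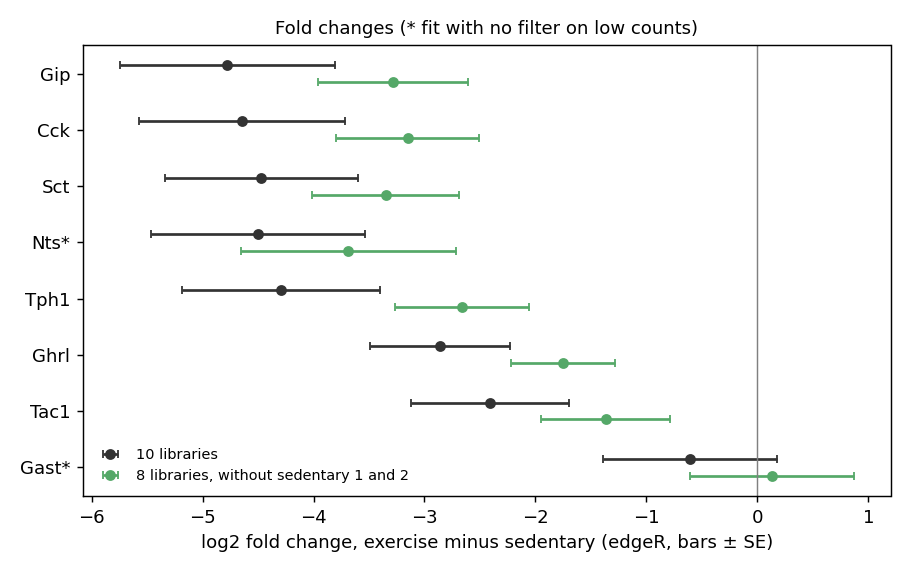
Log2 fold change of each gene on the horizontal axis, negative where exercise was lower, with bars of ± 1 SE from edgeR. Nts and Gast come from the fit with no filter. Black points are all 10 libraries and green points the 8 libraries without sedentary 1 and 2. Points lie left of 0 for every gene in both fits except Gast, at -0.61 and 0.13, and the green points are nearer to 0.

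Across members the level per kilobase of the longest coding transcript (GENCODE M21) can be set side by side. In sedentary libraries the median level was highest for Gip, at 35.4 CPM per kb (range 21.3 to 196), followed by Sct at 12.6 (7.20 to 51.7), Cck at 10.5 (5.62 to 61.0) and Ghrl at 8.90 (3.73 to 26.5). Tph1 at 1.05 (0.663 to 6.28), Tac1 at 0.995 (0.316 to 3.68), Gast at 0.751 (0.241 to 3.12) and Nts at 0.444 CPM per kb (0.104 to 1.27) formed the lower end. The ranges of neighbours in this order overlapped, and Tph1 reached the range of Ghrl only in sedentary 2. In exercise libraries the highest medians were those of Ghrl (1.94 CPM per kb, range 0.438 to 2.68) and Gip (1.76, range 0.0998 to 6.07), and these ranges overlapped. For scale, the median of Ins2 was 96456 CPM per kb in sedentary and 125110 in exercise libraries, and that of the glucagon gene Gcg 4860 and 4161 CPM per kb.

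In the sedentary libraries the ratios of Cck, Sct, Ghrl and Tph1 to Gip varied less than Gip itself. The ratio of Cck to Gip CPM was 0.328, 0.381, 0.389, 0.324 and 0.362 in sedentary 1 to 5, although Gip itself spanned 13.9 to 128 CPM there. The ratio of Sct to Gip lay between 0.190 and 0.304, and that of Ghrl to Gip between 0.185 and 0.343. For Tph1 the ratio was 0.140 to 0.261, while for Gast it was 0.00128 to 0.0249. Gip per 1000 CPM of the enterocyte list also kept a narrow range there, 3.23 to 4.58. The share of all genes with such ranges was not counted. In exercise the Cck to Gip ratio was 0.311 and 0.383 in libraries 6 and 10, the 2 with over 50 counts of Gip. In exercise 7, 8 and 9 Gip had 1, 20 and 6 counts, so that ratios to it carry a large counting error. The ratio of Ghrl to Gip was 0.508, 6.00, 0.900, 5.83 and 0.605 in exercise 6 to 10, higher in every exercise library than in any sedentary library. The same was so for 93.5% of all genes tested, and the difference between the falls of Ghrl and Gip was not tested.

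The enterocyte markers were lower in exercise, as were the 6 members tested, whereas Gast did not pass. Of the 25 enterocyte genes, all tested, 24 were lower and 0 higher in exercise (median log2 fold change -4.48; edgeR, 1 higher at an unadjusted p under 0.05, and 24 lower and 0 higher by DESeq2, 22 and 0 by limma-voom), and the exception was the fructose transporter gene Slc2a5, with a log2 fold change of 0.67 (edgeR adjusted p = 0.101). The most abundant of them, the chylomicron gene Apoa4 and the alkaline phosphatase gene Alpi, had 2076 ± 1500 and 1167 ± 1016 CPM in sedentary and 119 ± 98.3 and 51.2 ± 32.7 CPM in exercise libraries. Of the 14 Paneth and goblet cell genes 12 were lower (edgeR; 4 by limma-voom and 11 without sedentary 1 and 2), and the 1 that was higher, Zg16, is on the acinar list as well and was the most abundant, at 1753 ± 370 and 3895 ± 1745 CPM. The call of Zg16 was lost without any 1 of 7 libraries, sedentary 2, 3 or 5 or exercise 6, 7, 8 or 9 (highest edgeR adjusted p = 0.0929), and limma-voom called 0 of the list higher. Next in level, Fcgbp, of goblet cell mucus, had 466 ± 540 and 20.1 ± 20.0 CPM. The summed level of the 8 members was 141, 263, 42.2, 29.4 and 51.4 CPM in sedentary 1 to 5 and between 1.04 and 10.8 CPM in exercise libraries, in the sedentary group highest and lowest in the same libraries as the enterocyte sum. In the exercise group the members' sum was highest in library 10 and lowest in library 7, and the enterocyte sum highest in library 6 and lowest in library 9.

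Lists for mast cells and for enteric neurons, which make serotonin and tachykinins, held 0 genes called lower (6 and 8 genes tested). Of all genes tested 11.4% were lower and 2.44% higher, so 0 calls in lists this short do not set them apart. The summed level of 11 mast cell genes lay between 9.37 and 21.8 CPM in sedentary and 13.2 and 24.7 CPM in exercise libraries. Of these, 6 were tested and 0 passed (edgeR, 2 higher at an unadjusted p under 0.05; 0 by DESeq2 and by limma-voom). The most abundant were Kit (8.04 ± 1.91 and 11.4 ± 2.92 CPM) and Hdc (1.40 ± 0.665 and 2.45 ± 0.801 CPM). The chymase gene Mcpt1, found in mast cells of mucosa, was at 0 in every exercise library and in sedentary 4, and had 1.20 and 1.26 CPM in sedentary 1 and 2. Of 14 genes of enteric neurons and glia 8 were tested and 0 passed (edgeR, 2 higher at an unadjusted p under 0.05; 0 by DESeq2 and by limma-voom), their sum lying between 43.7 and 234 CPM in sedentary and 211 and 262 CPM in exercise libraries. The most abundant of these, Ret and Snap25, are islet genes too, and Chat, of cholinergic neurons, stayed at or under 0.342 CPM. Of 11 genes of smooth muscle and stroma 9 were tested and 0 passed (edgeR, 3 higher at an unadjusted p under 0.05; 2 higher by DESeq2 and 0 by limma-voom), the most abundant being Dcn, at 21.9 ± 19.7 and 19.3 ± 11.2 CPM, and Acta2, at 11.1 ± 4.19 and 20.3 ± 5.74 CPM. Of the 33 acinar genes 18 were higher and 0 lower in exercise (edgeR, 0 lower at an unadjusted p under 0.05; 29 higher and 0 lower by DESeq2, 7 and 0 by limma-voom, and 21 and 0 without sedentary 1 and 2), with sums of 89914 to 184745 CPM in sedentary and 202065 to 550885 CPM in exercise libraries. The most abundant, the amylase gene Amy2a5 and the elastase gene Cela2a, had 20699 ± 6734 and 13131 ± 3758 CPM in sedentary and 61915 ± 32905 and 31058 ± 13249 CPM in exercise libraries. Cela2a did not pass (edgeR adjusted p = 0.0593), and the call of Amy2a5 was lost without any 1 library other than sedentary 1 (highest edgeR adjusted p = 0.105). Of 15 islet endocrine genes 0 passed (edgeR, 1 higher at an unadjusted p under 0.05; 0 by DESeq2 and by limma-voom), among them Ins2 and Ins1, with 71445 ± 54130 and 29733 ± 22800 CPM in sedentary and 107500 ± 15668 and 44687 ± 7057 CPM in exercise libraries. Without sedentary 1 and 2, 1 islet, 1 mast cell and 1 neuron or glia gene were higher and the enterocyte list again had 24 lower. The part of these cell types in the members' levels was not tested.

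**Figure D3:**
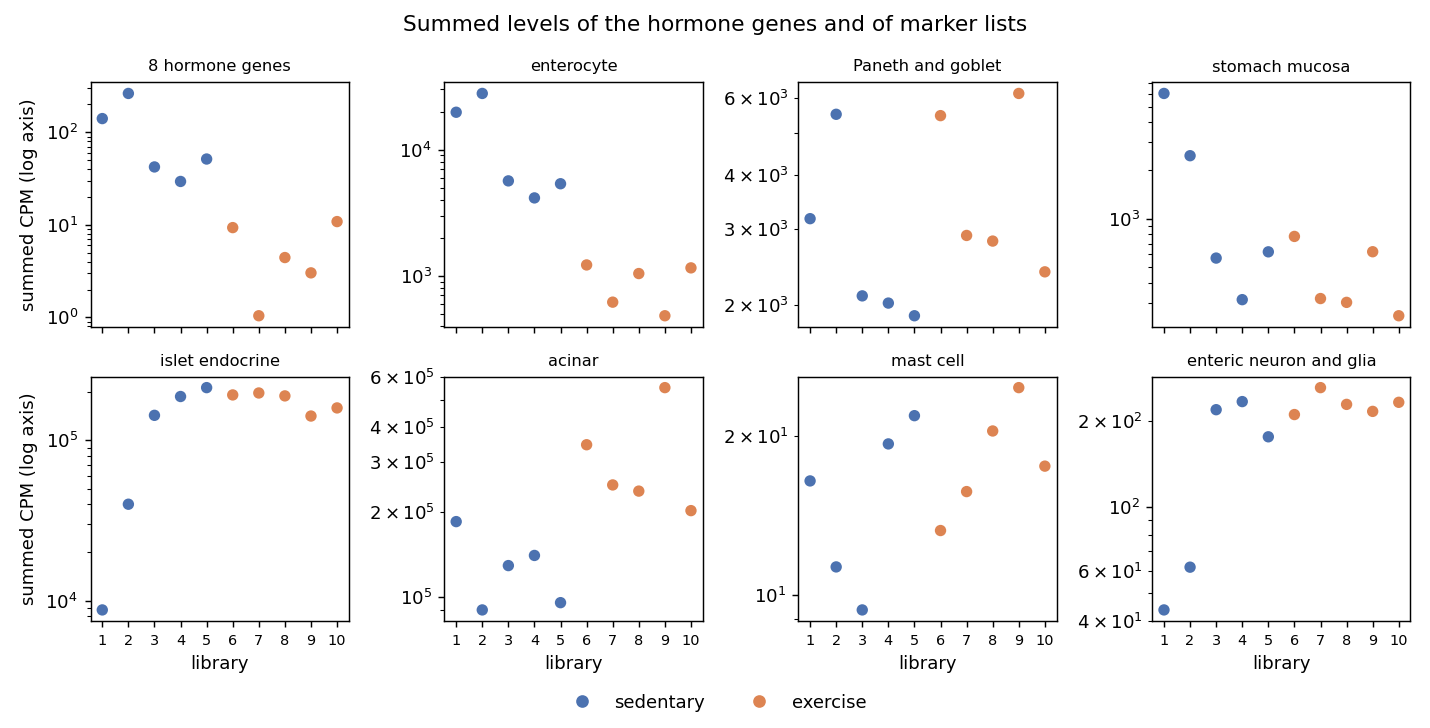
Summed CPM on a log axis for the 8 hormone genes and 7 marker lists in each library, with sedentary libraries in blue and exercise libraries in orange. The sums of the hormone genes and of the enterocyte list are lower in every exercise library than in any sedentary library, the acinar sum is higher in every one, and the other sums overlap.

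Relative to the enterocyte sum the groups overlapped for 7 of the 8 members. Gip had between 3.23 and 4.58 CPM per 1000 CPM of the enterocyte list in sedentary libraries and 2.80, 0.105, 1.10, 0.802 and 3.42 in exercise 6 to 10. This ratio was within the sedentary range in exercise 10 and below it in the other 4 exercise libraries. The same ratio for Cck was 1.08 to 1.75 in sedentary and 0 to 1.31 in exercise libraries, and for Sct 0.655 to 1.25 and 0 to 0.845. For Tph1 it was 0.602 to 1.03 and 0.211 to 0.972, with exercise 6 and 10 inside the sedentary range. For Ghrl the ratio was 0.803 to 1.48 in sedentary libraries and 1.42, 0.632, 0.994, 4.68 and 2.07 in exercise 6 to 10, and for Tac1 0.0755 to 0.228 and 0.134 to 0.608. The listed ratios of Gast did not overlap, at 0.00587 to 0.0834 in sedentary and 0.105 to 0.688 in exercise libraries. The lowest exercise ratio rests on 1 count of Gast in exercise 7, and exercise 8 and 9 had 3 and 2 counts. The highest sedentary ratio rests on 8 counts in sedentary 4, so the gap between sedentary 4 and exercise 7 lies within counting error. The median ratio of Gast was 0.0724 in sedentary and 0.267 in exercise libraries, and this difference was not tested. Over all genes tested, the ratio to the enterocyte sum was higher in every exercise library than in any sedentary library for 91.3%, and lower in every one for 0.562%. With the mean level of the enterocyte list as a covariate, 0 members passed (edgeR, 0 of all genes, 305 at an unadjusted p under 0.05). The log2 fold changes ± SE were 0.10 ± 0.81 for Gip, 0.26 ± 0.75 for Cck, 1.25 ± 0.94 for Tac1 and 0.68 ± 0.70 for Tph1. For Sct and Ghrl they were -0.38 ± 0.87 and -0.11 ± 1.03. The direction could not be told for any of the 6 (edgeR unadjusted p of 0.216 or higher). Group membership accounted for a share of 0.795 of that covariate's variance, so group and enterocyte level cannot be told apart in these libraries. With the acinar list as covariate 0 members passed after adjustment (edgeR, 0 of all genes, 1880 at an unadjusted p under 0.05), and all 6 fold changes stayed negative. The unadjusted edgeR p there lay between 0.0150 and 0.0183 for Gip, Cck, Sct, Tph1 and Ghrl, and was 0.500 for Tac1. Group membership accounted for a share of 0.636 of the acinar covariate's variance, so group and acinar level cannot be told apart either.

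**Figure D4:**
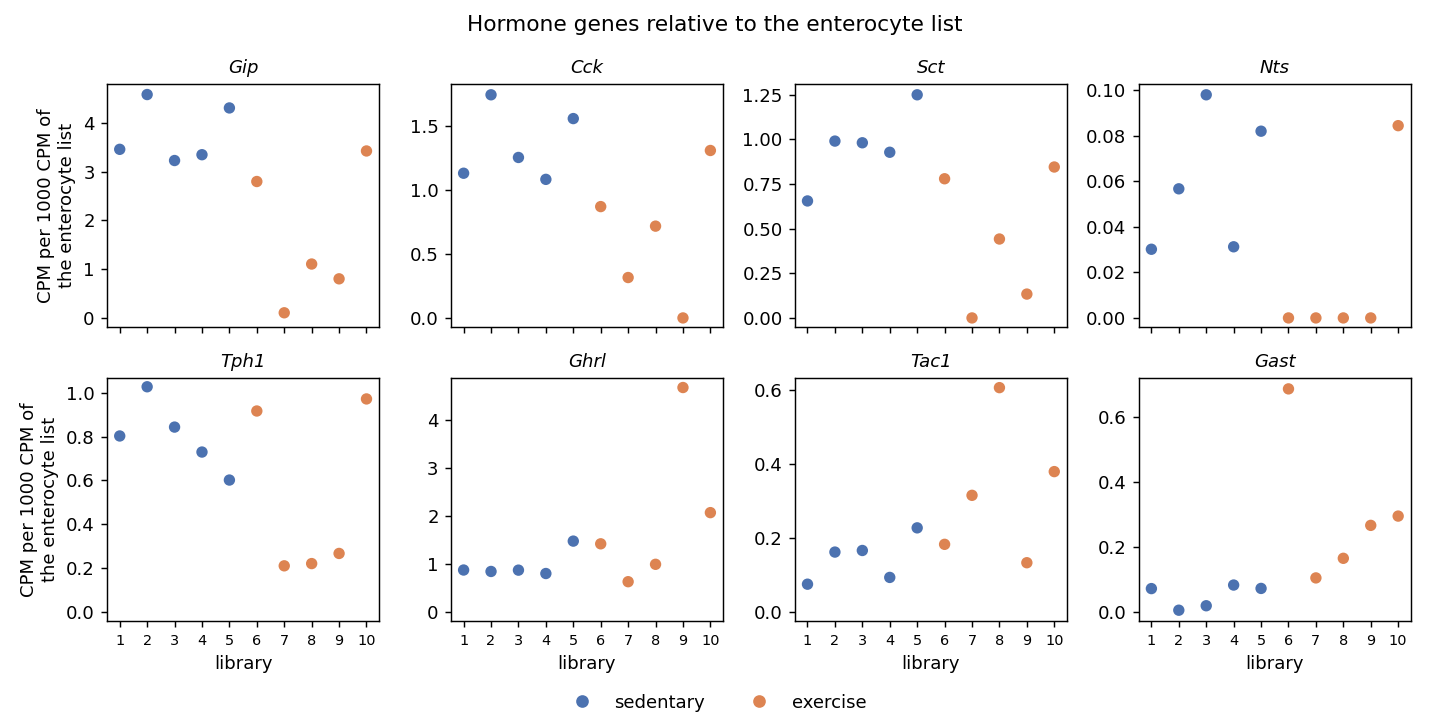
CPM of each hormone gene per 1000 CPM of the summed enterocyte list on the vertical axis in each library on the horizontal axis, with sedentary libraries in blue and exercise libraries in orange. Exercise 10 lies inside the sedentary range for Gip, Cck, Sct, Nts and Tph1, and all exercise points for Gast lie at 0.105 or higher, over the sedentary points. The lowest exercise point of Gast, in exercise 7, rests on 1 count.

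The genes whose pattern over the 10 libraries was most like each tested member were named by the smallest mean absolute difference of centred log2 CPM, among 13404 genes. Nearest to Gip were Gal3st2, a galactose sulfotransferase gene (0.259 log2 units), Sct (0.344) and the nuclear receptor gene Nr1i3 (0.368). Nearest to Cck were Clrn3 (0.191), Prap1 (0.192) and the hepatic and intestinal transcription factor gene Creb3l3 (0.194). Sct was closest to the apolipoprotein genes Apoa1 (0.233) and Apoc2 (0.238) and to the nucleotidase gene Entpd8 (0.242). Tph1 was closest to the ammonium transporter gene Rhbg (0.282), Sh2d6 (0.283) and Eps8l3 (0.288). Ghrl had other neighbours, Pxdc1 (0.237), Insl6 (0.260) and the immunoproteasome gene Psmb8 (0.267). Tac1, at its low counts, was closest to the mitotic kinesin genes Kif15 (0.311) and Kif2c (0.380) and the mucin gene Muc3a (0.384).

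Other genes of the enteroendocrine program, most of which islet cells express as well, are counted below against the 11.4% of all genes tested that were lower and the 2.44% that were higher. Of 11 tested genes among 16 other hormone genes of gut endocrine cells, 1 rose and 0 fell (edgeR, 0 lower at an unadjusted p under 0.05, by DESeq2 and by limma-voom; median log2 fold change 0.48). The neuropeptide gene Gal, for galanin, rose from 8.57 ± 2.90 to 21.5 ± 10.7 CPM (log2 fold change 1.33, edgeR adjusted p = 0.0344), and its call was lost without sedentary 2, 3 or 5 or exercise 6, 8 or 9 (highest edgeR adjusted p = 0.0776). Without sedentary 1 and 2 its log2 fold change was 1.31 (edgeR adjusted p = 0.0422). The peptide genes of intestinal L cells are islet genes too. Gcg had 5684 ± 5659 and 4460 ± 802 CPM (edgeR adjusted p = 0.731), and Pyy, for peptide YY, 256 ± 214 and 313 ± 36.6 CPM (edgeR adjusted p = 0.757). Insl5, the hormone of the colon, had no count in any library.

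Among 18 genes of hormone processing and serotonin handling, 16 were tested, 2 fell and 0 rose (edgeR, 1 higher at an unadjusted p under 0.05; 0 higher by DESeq2 and by limma-voom; median 0.57). The serotonin transporter gene Slc6a4 fell, with a mean of 20.1 ± 20.9 CPM in sedentary and 1.31 ± 0.517 CPM in exercise libraries (-3.93 ± 0.76 as log2 fold change ± SE, p adjusted in edgeR = 0.0105). Maoa, encoding a monoamine oxidase that degrades serotonin, fell from 298 ± 283 to 16.5 ± 5.65 CPM (-4.17 ± 0.70 as log2 fold change ± SE, p adjusted in edgeR = 0.00900). Both were lower in every exercise library than in any sedentary library, which held for 11.4% of all genes tested. Without sedentary 1 and 2 their changes were -2.31 and -2.57 (edgeR adjusted p = 0.00572 and 0.00116). Ddc, the decarboxylase that completes serotonin synthesis, had 232 ± 37.2 and 200 ± 30.1 CPM (edgeR adjusted p = 0.360).

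Of 15 tested transcription factor genes of the enteroendocrine lineage 1 fell and 0 rose (edgeR, 3 higher at an unadjusted p under 0.05; 1 higher by DESeq2 and 0 by limma-voom; median 0.83). The one that fell, Foxa1, encodes a forkhead factor of gut and other epithelia. It had 9.92, 11.2, 2.38, 0.950 and 1.27 CPM in sedentary 1 to 5 and between 0.0644 and 0.342 CPM in exercise libraries (log2 fold change -4.79, edgeR adjusted p = 0.00927). Without sedentary 1 and 2, Foxa1 changed by -3.01, and 3 factors shared with islet cells rose, picked here after their values were seen: Neurod1 (log2 fold change 1.11, edgeR adjusted p = 0.00194), Rfx6 (0.71, 0.00949) and Prox1 (0.68, 0.0453). Lmx1a, a factor of serotonin-producing gut cells, was too low to be tested, at 0.147 to 2.13 CPM in sedentary and at most 0.129 CPM in exercise libraries. Its lowest sedentary level lay within the 0.146 to 0.195 CPM that a count of 0 allows in the exercise libraries.

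Of 11 tested nutrient sensor genes 2 fell and 0 rose (edgeR, 0 higher at an unadjusted p under 0.05, by DESeq2 and by limma-voom; median 0.46). These were the glucose transporter gene Slc5a1 (log2 fold change -4.10), which is also on the enterocyte list, and the lysophosphatidic acid receptor gene Lpar5 (-3.58), at edgeR adjusted p = 0.00900 and 0.0105. Without sedentary 1 and 2 their changes were -2.71 and -2.04 (edgeR adjusted p = 0.00332 and 0.00669). With limma-voom the calls of Gal, Slc6a4, Foxa1 and Lpar5 were lost (adjusted p = 0.0667, 0.0821, 0.0618 and 0.0658). Of 21 receptor genes for the members' products 5 were tested and 0 passed (edgeR, 0 at an unadjusted p under 0.05, and 0 by DESeq2 and by limma-voom; median 0.71). The most abundant were the neurotensin-binding sorting receptor gene Sort1, at 134 ± 36.8 and 150 ± 15.3 CPM, and the cholecystokinin receptor gene Cckar, at 37.9 ± 14.7 and 51.1 ± 13.2 CPM.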

How the data were processed

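Total RNA of isolated islets was made into stranded mRNA libraries, per the labels' protocols. The deposited table holds the authors' estimated counts per Ensembl gene and library. Per the submitters' processing notes, fastp and kallisto were used. The sources used here name no version or genome build and do not say how transcripts were summed. Estimated counts (12.6% not whole, tolerance 1e-06) were rounded. Genes were tested with edgeR 4.0.16 (R 4.3.3, quasi-likelihood, scaling by trimmed mean of M-values (TMM), minimum count 10 and minimum total 15, Benjamini-Hochberg over 15298 genes, threshold 0.05), and the SE is the log2 fold change divided by the root of F. CPM use TMM-scaled library sizes, log2 CPM a prior count of 2. Library totals were 15081922 to 23222704 counts. At the TMM-scaled sizes 3 counts, the level a count of 0 allows, are 0.130 to 0.195 CPM. No molecular identifiers were counted, so reads may be copies of 1 molecule and intervals cover counting error only.

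Alternatives were other scalings and filters, DESeq2 1.42.0, limma 3.58.1 (voom), robust edgeR, list covariates, and leaving out each library or sedentary 1 and 2. Members, gene lists and alternatives were chosen with earlier results of these data known. Named genes were the members, the 3 genes nearest in pattern to each, every gene called of the enteroendocrine lists (otherwise the 2 most abundant) and the 2 most abundant of each marker list. Genes named outside this rule (Slc2a5, Mboat4, Atp4a, Gkn3, Mcpt1, Chat, Gcg, Pyy, Insl5, Ddc, Neurod1, Rfx6, Prox1 and Lmx1a) were picked after their values were seen. Promoters came from RefSeq tables of GRCm38.p6, and no position of a counted gene is given because the build of the counts is not known. In counts simulated for this comparison over 15298 genes, the test found 80 of 100 genes with a 4-fold and 95 of 100 with a 16-fold change, and called 4 unchanged genes. The changed genes were drawn from those with a mean above 1 CPM, and each gene was simulated independently. Differences shared by many genes, such as those of sedentary 1 and 2, were not simulated, so these figures do not cover them.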

Additional observations from a re-analysis of the deposited data

Results flagged for a closer look

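Each member was checked in both groups, 16 sets of 5 libraries, for a library whose gap to its nearest neighbour exceeded 0.71 of the group's range. For normally distributed values chance gives about 1 such set in 20. That rate need not hold for CPM, which are skewed here, and the sets share libraries. In all 3 were found, of which that of Nts carries no weight. Gast was at 1.43 CPM in sedentary 1, with the other sedentary libraries between 0.111 and 0.392 CPM. Tac1 was at 4.53 CPM in sedentary 2, with the others between 0.389 and 1.49 CPM. Nts was at 0.0976 CPM, or 2 counts, in exercise 10, where the other exercise libraries were at 0. With the other 4 at 0, any count passes this rule, and 2 counts are under the 3 that a count of 0 allows.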

How the results depend on the processing

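No paired analysis was possible because the library numbers run from 1 to 10 and none is shared between the groups. Over all genes edgeR called 374 higher and 1745 lower, and left-out libraries gave 132 to 889 higher and 800 to 2721 lower. Library totals alone gave 159 and 4408, DESeq2 1097 and 2642, limma-voom 177 and 339, and 644 were higher without sedentary 1 and 2. Scaling by library totals moved the median of all genes to -0.34 and by the upper quartile to 0.11, and the 6 tested members stayed lower under both. With the enterocyte or the acinar list as covariate 0 genes and 0 members were called in either direction (edgeR, 305 and 1880 genes at an unadjusted p under 0.05), and limma-voom called 1 member. With the enterocyte covariate the log2 fold changes were 0.10 for Gip, 0.26 for Cck, -0.38 for Sct, -0.11 for Ghrl, 1.25 for Tac1 and 0.68 for Tph1, and 0.45 for Foxa1, 0.54 for Lpar5, 0.13 for Slc5a1 and 0.15 for Slc6a4. With the acinar covariate they were -3.88, -3.38, -3.41, -2.88, -0.63 and -3.58 in the same order of members. With limma-voom the calls lost were those of Gip (-5.14), Cck (-4.84), Ghrl (-2.63), Tac1 (-2.12) and Tph1 (-4.12). Tac1 was also lost with no filter (-2.41), with robust edgeR (-2.41, adjusted p = 0.0502) and without sedentary 1 and 2 (-1.37). Left-out libraries gave -5.22 to -4.07 for Gip, -5.06 to -3.86 for Cck, -4.82 to -3.83 for Sct, -3.09 to -2.41 for Ghrl, -2.81 to -1.65 for Tac1, -4.70 to -3.57 for Tph1, -6.55 to -3.89 for Nts and -1.38 to 0.29 for Gast, and 4 to 6 members called lower. Gast changed sign without sedentary 1 and 2, to 0.13. The cause of these changes was not tested. Counts of Nts, Gast and Tac1 limit what can be seen in the exercise libraries, where 3 counts are 0.146 to 0.195 CPM.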
